A study of Mus musculus with 2 samples.

Results

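The 10 genes described here are transcripts of resident and alternatively activated macrophages: Mrc1, Folr2, Lyve1, Cd163, Stab1, Cd209f, Cd209g, Retnla, Cbr2 and Gas6. They were chosen by symbol, with earlier results of these data known, and all 10 were found among the 32285 genes of both libraries. The study grew MC38, a colon carcinoma line of the mouse, in the right flank of WT mice of both sexes aged 8 to 10 weeks, then sorted CD45+ cells from the tumors for droplet single-cell RNA sequencing. The Control library came from tumors left untreated, and the IR library from tumors that had received local ionizing radiation, 20 Gy at once, and were collected after 4 days. Each library pooled cells of 4 tumors and stood alone in its group, so no test was run and every difference below is between 2 libraries, in which the effects of radiation and of the library cannot be told apart. The cell type label of the samples (CD45+CD11b+Ly6Chi) is narrower than the CD45+ sort of the protocol, and cells passing T and NK gates were present in both libraries.

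Tissue macrophages that live beside vessels and nerves and in connective tissue are known for a set of endocytic and scavenger receptors with which they clear glycoproteins, lipoproteins, hemoglobin and dying cells. Part of this set is shared with the alternative activation program, which the cytokines IL-4 and IL-13 switch on through the transcription factor STAT6. Macrophages that arise from recruited monocytes in tumors carry these genes to differing degrees.

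The members fall into groups by role. The receptors are Mrc1, the mannose receptor CD206, Folr2, the folate receptor beta, Lyve1, a hyaluronan receptor also used by lymphatic endothelium, Cd163, the receptor for hemoglobin bound to haptoglobin, and Stab1, the scavenger receptor stabilin-1. Cd209f and Cd209g encode C-type lectins of the DC-SIGN family. Retnla encodes the secreted protein RELM-alpha, a classical product of IL-4 and IL-13 signaling, and Gas6 encodes a secreted bridge between dying cells and the receptors Axl, Mertk and Tyro3. Cbr2 encodes a carbonyl reductase.

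On GRCm38, with the GENCODE vM21 annotation, Cd209f (ENSMUSG00000051906) lies on chromosome 8 from 4102787 to 4105835, and Cd209g (ENSMUSG00000079168) lies near it from 4134098 to 4137707. Retnla (ENSMUSG00000061100) lies on chromosome 16 from 48842551 to 48844461 and Mrc1 (ENSMUSG00000026712) on chromosome 2 from 14229392 to 14332057. The Cd209 genes and the Retnl genes have near-identical relatives, so their counts are uncertain where reads fitted several of them.

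Upstream sequence is shown for Cd209f, Retnla and Mrc1, which were respectively not detected in IR cells, held mostly by few cells and the most widely detected. The bases lie directly before the annotated start, are given 5′ to 3′ on the strand of the gene and come from RefSeq on GRCm38.p6. The windows are chr8:4105836-4106014 for Cd209f on the minus strand, chr16:48842359-48842550 for Retnla and chr2:14229164-14229391 for Mrc1 on the plus strand.
Cd209f: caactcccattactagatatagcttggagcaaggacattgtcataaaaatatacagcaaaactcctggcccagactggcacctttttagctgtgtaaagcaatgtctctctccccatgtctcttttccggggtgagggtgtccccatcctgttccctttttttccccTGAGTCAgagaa
Retnla: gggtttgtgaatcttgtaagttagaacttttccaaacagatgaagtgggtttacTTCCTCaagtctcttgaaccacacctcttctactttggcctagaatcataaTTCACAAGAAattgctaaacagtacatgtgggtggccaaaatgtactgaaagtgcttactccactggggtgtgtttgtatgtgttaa
Mrc1: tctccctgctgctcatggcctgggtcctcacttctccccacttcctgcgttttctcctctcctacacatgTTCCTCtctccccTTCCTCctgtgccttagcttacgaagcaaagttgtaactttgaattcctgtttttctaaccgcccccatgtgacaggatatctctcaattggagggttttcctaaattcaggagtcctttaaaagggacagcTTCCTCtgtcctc
Capitals mark an AP-1 site in Cd209f, a PU.1 core and then a STAT6 palindrome in Retnla and 3 PU.1 cores in Mrc1. The motifs were searched on both strands in windows of 250 bases before and 50 after the start: AP-1 as TGAGTCA or TGACTCA, the PU.1 core as GAGGAA, a MAF site as TGCTGA and the STAT6 palindrome as TTC and GAA with any 4 bases between. A member counted when any of its windows matched, whereas the shares over all genes are per window, with 32851 windows for 27025 genes. An AP-1 site was found in 3 of the 9 members with a window (Folr2, Cd209f and Cd209g) and in 5.20% of 32851 windows of all genes. A PU.1 core was found in 4 (Mrc1, Stab1, Retnla and Cbr2) against 28.3% of all windows, a MAF site in 4 (Folr2, Stab1, Retnla and Cbr2) against 19.5%, and a STAT6 palindrome in 2 (Retnla and Cbr2) against 6.95%. The motifs were picked with the results known, AP-1 after the Cd209f window had been read, and a match describes letters only.

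Cells were taken as barcodes with at least 2000 UMIs (unique molecular identifiers, each standing for 1 captured RNA molecule), which gave 4359 in Control and 3194 in IR. C1q-high cells had at least 10 UMIs of C1qa, C1qb and C1qc, the complement genes that mark macrophages. They numbered 2251 of 4359 in Control (51.6%, exact binomial 95% interval 50.1% to 53.1%) and 732 of 3194 in IR (22.9%, 21.5% to 24.4%). The limit cut through a range, since 150 Control and 89 IR cells had 10 to 14 C1q UMIs and 182 and 103 had 5 to 9. Csf1r, the receptor for the macrophage growth factor, was detected in 91.4% of Control and 91.3% of IR C1q-high cells, and the other 8 macrophage markers checked were present in both. Median depth was 9830 UMIs in Control and 13040 in IR C1q-high cells, while their median count of C1q UMIs was 54 and 40. The gate genes were thus themselves lower in IR, and the member differences were not separated from this. The 2 libraries shared 7 cell barcodes over all cells and 0 in C1q-high cells. All intervals here are 95% and cover counting error only.

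The makeup of the C1q-high cells differed between the libraries. No other lineage gate was passed by 1492 of the 2251 Control cells and by 202 of the 732 IR cells. The monocyte gate alone (at least 5 UMIs of Ly6c2, Chil3 and Plac8 with at least 10 of Lyz2) was also passed by 309 Control and 284 IR cells. The remaining 450 Control and 246 IR cells passed at least 1 further gate, most often the T gate (357 and 163 cells), and doublets among them were not identified. Free RNA, doublets and these subsets were not separated in the main values, and the values within the subsets follow below.

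All 10 genes had a lower level in IR than in Control C1q-high cells. The level is in CPM, the summed UMIs of a gene scaled to the UMI total of its population, and the difference is the log2 ratio of CPM plus 10, IR over Control. At a difference of 2-fold or more on that scale, 6 of the 10 were lower (Mrc1, Folr2, Cd209f, Retnla, Cbr2 and Gas6) and 0 were higher, where 0.405% of 12359 genes with at least 20 UMIs were lower by that much and 1.06% were higher. A gene under 10 CPM in Control cannot reach that limit even at 0 UMIs in IR, as for Cd163 and Cd209g. The 0.405% thus covers genes that could not be called, and is low by this construction. With a constant of 1 CPM, 9 of the 10 and 311 of 12359 genes were lower by 2-fold or more. The median difference of the 10 was -1.07, against -0.02 over all genes. Intervals of the 2 libraries did not overlap for any of the 10, with Control the higher, as for 19.6% of all genes.

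**Figure D1:**
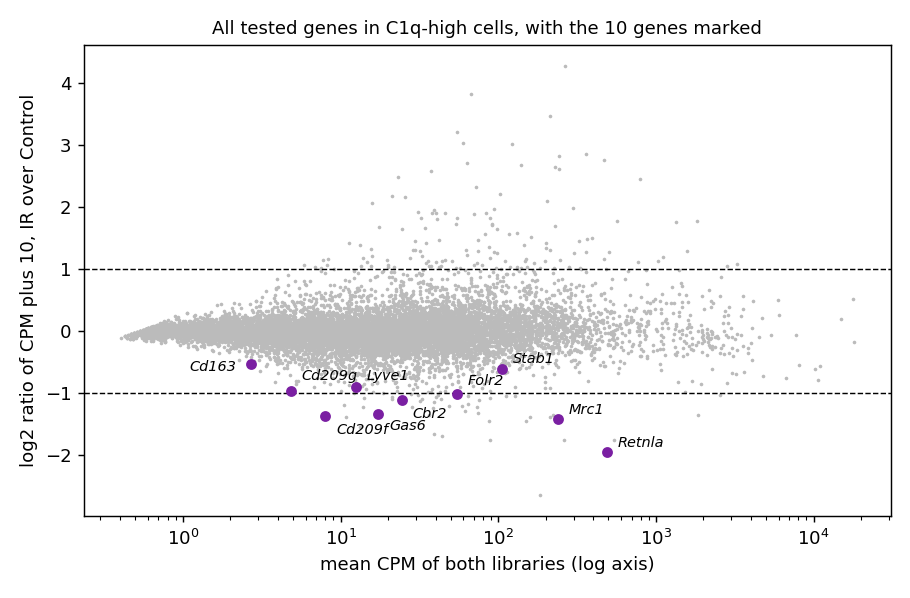
Each gray point is a gene of C1q-high cells, with its mean CPM in both libraries on the x axis (log axis) and its log2 ratio of CPM plus 10, IR over Control, on the y axis, and dashed lines mark the 2-fold limits. The 10 labelled genes lie below 0 with a median of -1.07, while all genes center on -0.02.

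Mrc1 was the most widely detected receptor. C1q-high cells held 8736 Mrc1 UMIs in Control, or 353 CPM (346 to 360), and 1471 in IR, or 124 CPM (118 to 131), which was 2.84-fold lower (2.68 to 3.0). When every cell was thinned to 2000 UMIs, so that depth was equal, 45.4% of Control (43.4% to 47.5%) and 19.8% of IR C1q-high cells (17.0% to 22.9%) had an Mrc1 UMI. Mrc1 was thus lower both in summed level and in the share of cells, and it was spread over many cells, with the first 50% of its UMIs held by 387 Control cells and 76 IR cells. As background, 0.75% of Control and 0% of IR cells of the NK gate, which should lack these genes, had an Mrc1 UMI at 2000 UMIs (median depth 7857 and 8076 UMIs). In T-gate cells, the background first planned, the shares were 6.36% and 2.81%, and NK-gate cells were taken in their place after T-gate values had been seen. The choice was thus made with member values known, and it gave the lower background for Mrc1. These T-gate cells had a median of 0 C1q UMIs in both libraries, and other macrophage RNA in them is not given here.

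Folr2 and Lyve1 mark resident macrophages of connective tissue and vessels. Folr2 had 1896 UMIs (76.6 CPM) in Control and 386 (32.6 CPM) in IR, 2.35-fold lower (2.10 to 2.63). It was detected at 2000 UMIs in 11.3% of Control and 6.42% of IR C1q-high cells. Lyve1 was rarer, at 479 UMIs (19.4 CPM) in 114 Control cells and 66 UMIs (5.58 CPM) in 14 IR cells, 3.47-fold lower (2.68 to 4.56). In IR, 3 cells held the first 50% of the Lyve1 UMIs and 10 cells held 93.9%.

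Cd163 was rare in Control and near the limit of detection in IR. Control C1q-high cells held 125 Cd163 UMIs in 51 cells, and IR C1q-high cells held 4 UMIs in 4 cells, 14.9-fold lower (5.69 to 55.7). Its log2 ratio of CPM plus 10 was only -0.54 because the constant of 10 CPM exceeds the level of 5.05 CPM in Control. At 2000 UMIs a Cd163 UMI was found in 0.98% of Control cells and in 0 of 732 IR cells. The exact interval of the IR share at this depth reaches up to 0.50%, while the floor of 3 cells stands at 0.41%. Without thinning, 4 of the 732 IR cells (0.55%) had a Cd163 UMI.

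Stab1, the scavenger receptor found on many macrophages, had the smallest fold difference of the 10. It had 3199 UMIs (129 CPM) in Control and 958 (81.0 CPM) in IR, 1.60-fold lower (1.48 to 1.72). At equal depth 21.5% of Control and 16.1% of IR C1q-high cells had a Stab1 UMI, whereas without thinning the shares were 54.1% and 59.3%, in the deeper IR cells the larger. Its UMIs were spread widely, with the first 50% in 252 Control and 105 IR cells.

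The lectins Cd209f and Cd209g were seen in Control cells and not in IR cells. Control C1q-high cells held 396 Cd209f UMIs in 59 cells and 240 Cd209g UMIs in 51 cells, or 16.0 and 9.70 CPM. IR C1q-high cells held 0 of either, as did every other IR population of cells. Against a floor of 3 UMIs for the IR population, Cd209f was 63.1-fold lower and Cd209g 38.2-fold lower. The lower limits of the exact conditional intervals were smaller, at 51.1-fold for Cd209f and 30.8-fold for Cd209g. Few cells carried them in Control, where the 10 highest cells held 54.0% of the Cd209f and 52.5% of the Cd209g UMIs, with up to 57 Cd209f UMIs in a cell. At 2000 UMIs, 1.60% of Control C1q-high cells had Cd209f and 1.42% had Cd209g. In the free RNA, taken from barcodes with 10 to 100 UMIs, Cd209f had 80 UMIs in Control and 1 in IR, and Cd209g had 45 and 1.

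**Figure D2:**
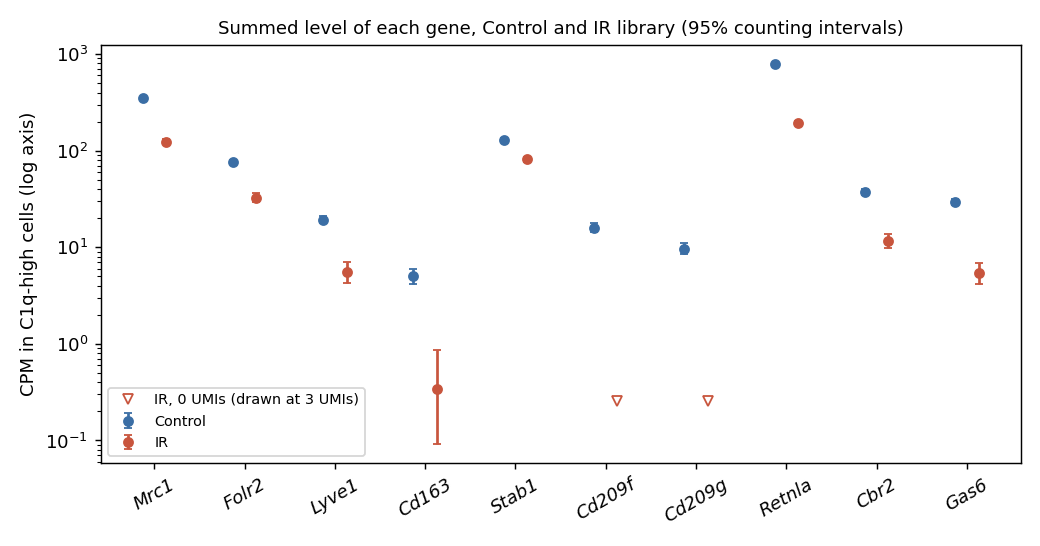
Summed level of each of the 10 genes in C1q-high cells (CPM, log axis) for the Control (blue) and IR (red) libraries, with bars for the 95% intervals of counting error. IR lies below Control for each gene, and open triangles drawn at the floor of 3 UMIs stand for the 0 UMIs of Cd209f and Cd209g in IR.

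Retnla was the most unevenly spread over cells of the members with many UMIs. C1q-high cells held 19418 Retnla UMIs (785 CPM) in Control and 2287 (193 CPM) in IR, 4.06-fold lower (3.88 to 4.24). At 2000 UMIs 12.9% of Control and 3.28% of IR cells had a Retnla UMI, so a smaller share of IR cells carried it. The mean over positive cells at that depth was 16.5 UMIs in both libraries, but the IR mean rests on 24 cells, and without thinning the medians over positive cells were 6 and 12.5 UMIs. A cell held up to 634 Retnla UMIs in Control and up to 632 in IR, and the first 50% of all Retnla UMIs came from 34 Control cells and 4 IR cells.

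In IR the 10 cells highest in Retnla held 83.9% of its UMIs, so its summed level there rests on few cells. Without the 10 highest cells of each library Retnla was at 605 CPM in Control against 31.6 CPM in IR, and the log2 ratio of CPM plus 10 moved from -1.97 to -3.89. That step took 10 of 42 positive IR cells but 10 of 448 positive Control cells, so it lowers the IR level more by its construction. In C1q-high cells that passed no other gate the ratio was only -0.24, with 621 CPM in 241 positive Control cells and 526 CPM in 13 positive IR cells, 1.18-fold lower (1.11 to 1.26). There 10 cells held 99.7% of the IR UMIs and 41.6% of the Control UMIs. In C1q-high cells that also passed the monocyte gate Retnla was at 1743 CPM in Control and 208 CPM in IR, 8.38-fold lower (7.78 to 9.04). NK-gate cells with a Retnla UMI, 2.62% in Control and 0.30% in IR at 2000 UMIs, give the background.

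**Figure D3:**
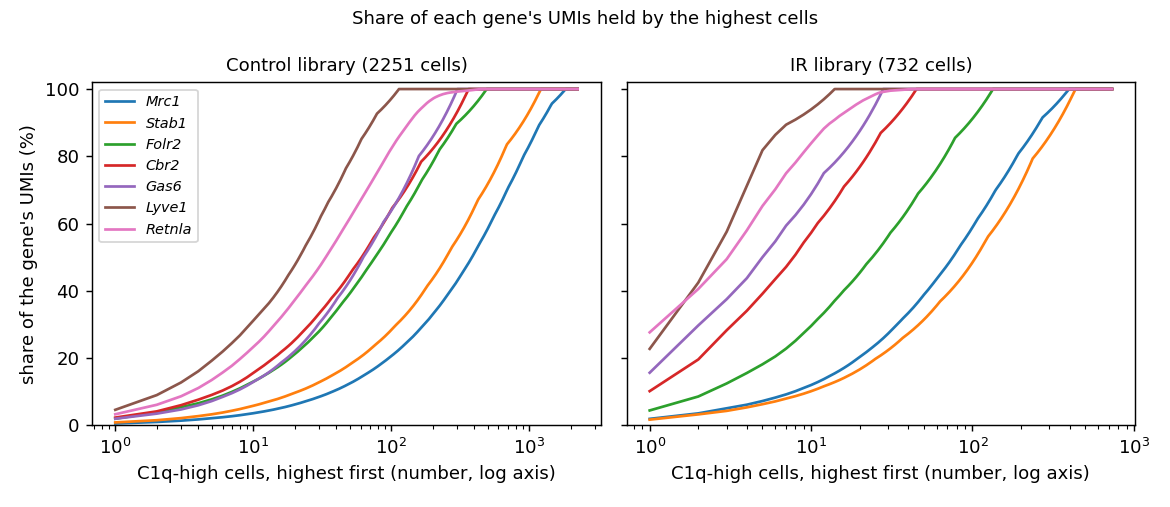
Share of each gene's UMIs (%) held by the C1q-high cells highest in it, against the number of cells counted from the highest (log axis), for the Control and IR libraries. In IR the first 50% is held by 3 cells for Lyve1 and 4 for Retnla, while Mrc1 needs 387 Control and 76 IR cells.

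Cbr2 and Gas6 were lower in IR at a similar or greater size. Cbr2, the carbonyl reductase, had 920 UMIs (37.2 CPM) in 364 Control cells and 138 (11.7 CPM) in 45 IR cells, 3.19-fold lower (2.66 to 3.84). Gas6, the ligand for Axl and its relatives, had 723 UMIs (29.2 CPM) in 303 Control cells and 64 (5.41 CPM) in 28 IR cells, 5.40-fold lower (4.18 to 7.08). At 2000 UMIs Cbr2 was found in 6.97% and 2.46% of C1q-high cells, and Gas6 in 5.64% and 1.23%. In IR both were carried by few cells, with 10 cells holding 57.2% of the Cbr2 and 68.8% of the Gas6 UMIs.

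The receptors of Gas6 and its partner ligand differed by smaller folds. Axl was 1.72-fold lower in IR C1q-high cells (252 to 146 CPM), Mertk 1.27-fold lower (29.0 to 22.9 CPM) and Pros1, a related ligand, 1.99-fold lower (21.7 to 10.9 CPM). Tyro3 had 4 UMIs in each library. Of these 4 genes 3 had enough UMIs to be compared, and 0 passed the 2-fold limit on the log2 scale of CPM plus 10.

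Within each subset of C1q-high cells the 10 genes were again lower in IR, by differing amounts. In cells with no other gate 4 of the 10 were lower by 2-fold or more, where 0.517% of all genes were, and the median difference was -0.92. In cells that also passed the monocyte gate 8 of the 10 were lower, where 0.57% of all genes were, and the median was -1.46. Mrc1 was 2.27-fold lower (2.05 to 2.52) with no other gate and 2.70-fold lower (2.44 to 3.0) with the monocyte gate. Stab1 was 2.0-fold lower (1.71 to 2.35) with no other gate and 1.24-fold lower (1.07 to 1.43) with the monocyte gate, the reverse of the order seen for Mrc1 and Retnla. In the cells that passed further gates the intervals of Cd163 and Stab1 overlapped, and those of the other 8 did not. The share of all genes without overlap was not computed for these cells, so that count has no background to be read against. Whether the subsets differ in these ratios was not tested.

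Outside the C1q-high cells most members were at low levels, with Mrc1, Stab1 and Retnla as exceptions. These cells had under 10 C1q UMIs and were grouped by the gate they passed. Mrc1 in Control, with cells of several gates, neutrophil-gate cells and populations under 50 cells left aside, ran from 353 CPM in C1q-high cells to 183 in cells that passed no gate, 97.2 in monocyte-gate cells, 44.9 in T-gate cells, 8.97 in DC-gate cells and 3.44 in NK-gate cells. In that order each of the first 4 was apart from the next by its interval, while DC-gate and NK-gate cells were not told apart. In IR the order was the same, at 124, 46.8, 43.2, 22.6, 6.70 and 1.36 CPM, and cells with no gate and monocyte-gate cells overlapped. The 72 neutrophil-gate cells of IR had 4 Mrc1 UMIs, or 17.5 CPM (4.77 to 44.8).

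Retnla and Stab1 went in opposite directions in C1q-low monocyte-gate cells. Retnla, the IL-4 and IL-13 product, had 920 UMIs in 35 of 406 Control cells and 55 UMIs in 8 of 717 IR cells, 341 and 8.46 CPM, 40.3-fold lower in IR (30.7 to 54.0). Mrc1 was 2.25-fold lower there (1.89 to 2.67). Stab1, by contrast, had 101 UMIs (37.5 CPM) in Control against 401 (61.7 CPM) in IR, where the intervals (30.5 to 45.5 CPM and 55.8 to 68.0 CPM) did not overlap. Stab1 was also higher in IR in T-gate cells, at 13.5 and 27.2 CPM, and the source of its UMIs there was not determined. It was alike in cells with no gate, at 44.9 and 45.4 CPM. Folr2 in monocyte-gate cells was at 3.34 CPM in Control and 4.62 CPM in IR, with overlapping intervals.

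For Folr2, Lyve1, Cd209f, Cd209g, Cbr2 and Gas6 the Control level in C1q-high cells stood apart from every other population of at least 50 cells, and those others overlapped one another in sequence at under 6 CPM. In IR, Cd209f and Cd209g were at 0 in every population, and the Cd163 level of 0.34 CPM in C1q-high cells overlapped that of cells with no gate (1.34 CPM) and monocyte-gate cells (0.77 CPM). The 72 neutrophil-gate cells of IR held too few UMIs in all to be told apart from the C1q-high cells in Lyve1, Gas6 (0 UMIs each, up to 16.1 CPM) and Cbr2 (3 UMIs, 2.71 to 38.4 CPM). Gas6 is also known from fibroblasts and endothelium. Fibroblast-gate cells held 25 Gas6 UMIs in Control and 0 in IR, 8.55-fold lower against a floor of 3 UMIs. The lower limit of the exact conditional interval was 6.45-fold. The Control UMIs lay in 2 of 32 fibroblast-gate cells, and IR had 24 such cells.

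**Figure D4:**
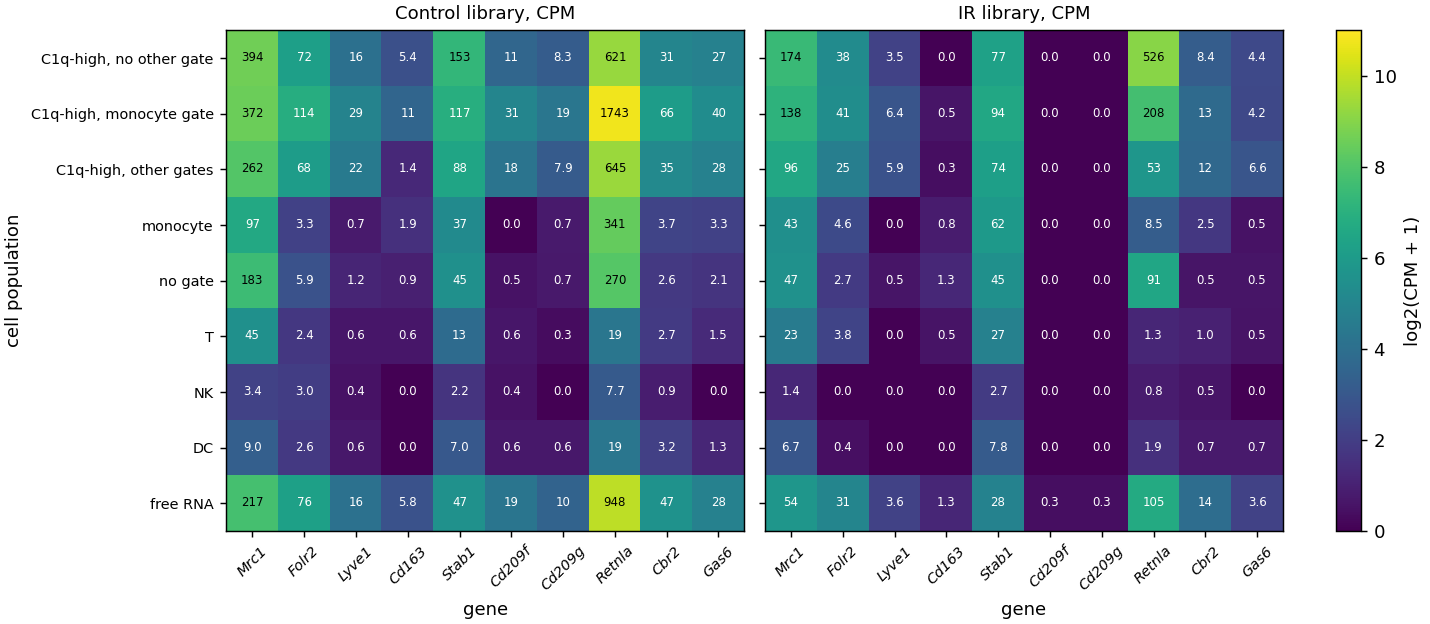
Levels of the 10 genes (CPM in each cell, color on the log2 scale of CPM plus 1) in the cell populations and in free RNA, for the Control and IR libraries. Levels of most genes fall off below the 3 C1q-high rows, while the free RNA holds all 10, with Retnla at 948 CPM and Stab1 at 47.0 CPM in Control.

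Free RNA carried all 10 members in both libraries. In Control it held Retnla at 948 and Cbr2 at 47.2 CPM, above the C1q-high cells, Folr2 at 75.9 CPM, near them, and Mrc1 at 217 and Stab1 at 47.0 CPM, below them. In IR it held Retnla at 105, Mrc1 at 54.3 and Stab1 at 28.4 CPM, below the C1q-high cells, and Folr2 at 31.3 and Cbr2 at 14.2 CPM, with intervals that overlapped theirs. Each member was lower in IR than in Control free RNA. From collagen genes free RNA was put at 8.82% of all UMIs in Control C1q-high cells and 5.59% in IR, which would supply 10.7% of the Control Retnla UMIs and 3.21% of the Stab1 UMIs. With it subtracted, the same number of members, 6 of 10, were lower by 2-fold or more, as were 55 of 12359 genes.

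Lyve1, Stab1, Mrc1 and Gas6 are also endothelial genes, so endothelial markers were counted in C1q-high cells. The 7 markers summed to 23.3 CPM in Control and 37.9 CPM in IR, most of it from Pecam1 (321 and 367 UMIs), which leukocytes also use. Vwf, which encodes von Willebrand factor, was lower in IR, like the members, with 201 UMIs in Control and 36 in IR (8.12 and 3.04 CPM). Kdr had 35 and 39 UMIs, Cdh5 11 and 3, Tek 2 and 0, Prox1 2 and 1 and Flt4 4 and 2. The part of endothelial RNA in the member values was not tested.

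Some of the members were found together in the same cells. With cells thinned to 2000 UMIs, 847 of 2251 Control C1q-high cells (37.6%) and 459 of 732 IR cells (62.7%) had none of the 10. At least 3 of the 10 were found in 212 Control cells (9.42%, 8.24% to 10.7%) and 19 IR cells (2.60%, 1.57% to 4.02%). The shares that would arise if each member were detected independently were not computed. Lower detection of single members in IR lowers this count as well, and the 2 were not separated. Over 20 further random thinnings the Control share ran from 9.77% to 10.9% and the IR share from 1.91% to 3.14%, so the draw used was a low one for Control. At least 6 were found in 46 Control cells and 0 IR cells, and 1 Control cell held all 10.

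**Figure D5:**
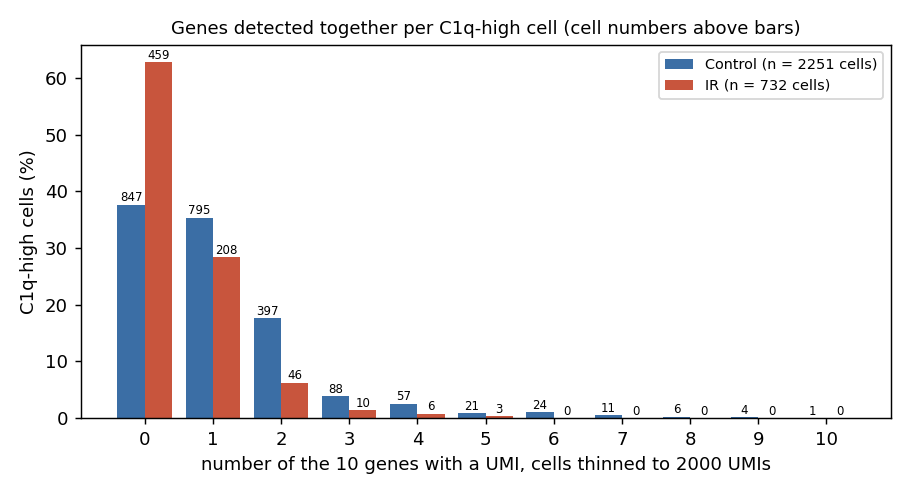
Share of C1q-high cells (%) by the number of the 10 genes with a UMI after thinning to 2000 UMIs, Control and IR, with cell numbers above the bars. IR cells end at 5 genes, while Control cells reach 10.

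Some members marked such cells more closely than others. Of the 75 Control cells with Lyve1, 93.3% had at least 2 other members, against 24.6% of the cells without it. For Cd209g this was 100% of 32 cells against 26.0%, for Cd209f 88.9% of 36 against 25.9%, and for Cd163 90.9% of 22 against 26.4%. The related lectins went together, since 22 of the 36 cells with Cd209f also had Cd209g, which was found in 1.42% of all C1q-high cells. Folr2 was found in 55 of the 75 Lyve1 cells and in 31 of the 36 Cd209f cells.

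Mrc1, Stab1 and Retnla showed smaller differences in share. Each count leaves out the member itself, for Mrc1 the most widely detected one, so the shares of different members are not on equal terms. At least 2 other members were found in 18.5% of cells with Mrc1 and 6.92% of cells without it. For Stab1 the shares were 19.0% with it and 16.5% without, and Stab1 was found with Lyve1 in 24.0% of Lyve1 cells against 21.5% of all. For Retnla they were 43.4% and 20.0%. In IR the same shares were 87.5% of 8 Lyve1 cells against 7.87%, 12.4% against 1.70% for Mrc1, 29.2% against 6.5% for Retnla and 7.63% against 5.21% for Stab1.

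Cells with at least 3 members, called member-rich, were compared with the other C1q-high cells in genes that did not define them. Ccl8, a chemokine, was at 2566 CPM in the member-rich and 169 CPM in the other cells of Control, and at 638 and 31.6 CPM in IR. Selenop, which encodes the plasma selenium carrier, was at 1169 and 158 CPM in Control and 582 and 64.6 CPM in IR. F13a1, a coagulation factor subunit, was at 808 and 89.3 CPM in Control and 863 and 113 CPM in IR. The genes were named by the size of their ratio in both libraries, so these values are a description.

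The other 7 of the 10 leading genes had the same order in both libraries. They were Pltp (phospholipid transfer protein), Ltc4s (leukotriene C4 synthase), C4b (complement C4), Gdf15 (a stress-induced cytokine), Fcgrt (the neonatal Fc receptor), Pmp22 and Serpinb6a. In Control, Pltp was at 965 and 121 CPM, C4b at 263 and 16.5 CPM and Fcgrt at 427 and 47.1 CPM in the member-rich and the other cells. In all, 36 of 1301 genes were higher by 2-fold or more in the member-rich cells of both libraries. These 1301 were kept by their level in the member-rich cells alone, which favors genes high there. The IR side rests on 19 cells, so the count is a description. Member-rich cells had a median of 6473 UMIs in Control, against 10226 in the other C1q-high cells, and 13110 against 13025 in IR. The monocyte gate was passed by 20.8% of member-rich and 14.6% of other Control cells, and by 57.9% and 47.4% in IR.

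Of the 19 alternative activation genes with enough UMIs, 7 were higher and 7 lower in the member-rich cells of both libraries, 0 of them higher and 2 lower by 2-fold or more (Chil3 and Ccl22, the IR value of Ccl22 resting on 1 UMI). Arg1, the arginase of that program, was at 1762 CPM in the member-rich and 2528 CPM in the other Control cells, and at 2144 and 2928 CPM in IR. Chil3, a chitinase-like protein, was at 98.3 and 230 CPM in Control and at 82.0 and 191 CPM in IR. Ccl17 was at 91.5 and 148 CPM in Control and 4.31 and 183 CPM in IR, the first of these IR values resting on 1 UMI. Il4ra, a receptor subunit for IL-4 and IL-13, was instead higher in the member-rich cells, at 228 and 123 CPM in Control and 285 and 152 CPM in IR.

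Lists of related genes were then compared between the libraries in C1q-high cells. Of 30 other genes of resident and perivascular macrophages, 27 had enough UMIs, 8 were lower in IR by 2-fold or more and 0 were higher, with a median difference of -0.27. The lower genes included Ccl8 (326 to 43.5 CPM, 7.49-fold), Igf1, a growth factor (23.5 to 4.23 CPM, 5.55-fold), and Selenop (224 to 74.8 CPM, 2.99-fold). Apoe, the lipid carrier, was at 2683 and 1040 CPM. Others of the list were higher in IR within the 2-fold limit, such as the chemokine Pf4 (789 and 984 CPM), the scavenger receptor Cd36 (47.7 and 83.2 CPM) and the lectin Clec4n (453 and 815 CPM). The lectins Cd209b and Cd209d, relatives of the members, were 24.4-fold (51 and 1 UMIs, 4.18 to 981) and 5.52-fold lower, while Cd209a was at 7.72 and 8.37 CPM.

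Of 21 genes of alternative activation, 19 had enough UMIs, 1 was lower by 2-fold or more (Ear2, 2.59-fold) and 1 was higher (Csf1, 9.74 to 30.3 CPM). The median difference was 0.23, on the other side of 0 from the members. Arg1 was at 2478 CPM in Control against 2913 CPM in IR, and Il4ra at 130 and 154 CPM. Stat6, the transcription factor of the program, was at 56.2 and 59.9 CPM, a ratio of 1.07 (0.97 to 1.17). Retnla, a product of the same program, was thus lower in IR C1q-high cells while Arg1 and Il4ra were slightly higher. Of the 19 genes 6 were below 0 like Retnla, among them Chil3 (221 and 189 CPM) and Klf4 (558 and 372 CPM). Il13 had 6 UMIs in Control and 47 in IR C1q-high cells.

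The genes most like each member across populations were taken by Pearson r of log2(CPM plus 10) over 14 sums, 7 populations in each of the 2 libraries. The sums share libraries and free RNA, and C1q-high cells were set apart by their C1q UMIs, so r is a description. Genes largely confined to C1q-high cells follow the C1q genes by this construction. Folr2, Lyve1 and Cbr2 were most like the C1q genes, with r of 0.96 and 0.91 to C1qa for Folr2 and Lyve1 and 0.92 to C1qc for Cbr2. Gas6, Cd209f and Cd209g were most like Ccl8, with r of 0.91, 0.85 and 0.86. The Cd209f and Cd209g values rest mainly on the Control C1q-high sum, at 16.0 and 9.70 CPM. Mrc1 was most like Slc7a2, an amino acid transporter (0.95), Stab1 most like Abca1, a cholesterol exporter (0.98), Retnla most like the chemokine Ccl24 (0.90) and Cd163 most like Cx3cr1 (0.83).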

How the data were processed

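The values are raw UMI counts, deposited by the authors as 1 unfiltered 10x matrix per library and made with Cell Ranger (6.0.1 per the submitters' processing notes, 4 in the file headers) on mm10. Total counts were 48593879 in Control and 42406461 in IR. From these counts, cells of at least 2000 UMIs were gated by marker UMIs, and counts were summed per library and population. Genes with at least 20 UMIs in both libraries together were compared by the log2 ratio of CPM plus 10, and called at 1 or more in size. Counts carry exact Poisson, shares Clopper-Pearson and ratios exact conditional 95% intervals. Detection was compared after thinning to 2000 UMIs. Doublets were not removed in the main values. The automatic threshold of Scrublet (scanpy 1.11.5) marked 0 cells and was taken as not having worked, so the 6% of cells with the highest score were left out as an alternative. Scaling by TMM used edgeR 4.0.16 in R 4.3.3, and other steps Python 3.11.15, numpy 2.4.6 and scipy 1.17.1. The scripts were tested on simulated data. Changes in genes at low levels, smaller changes and UMIs held by few cells were not part of that test.

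Members and lists were chosen with earlier results of these data known. Genes named are the members, the context lists, the 3 genes most like each member and the 10 with the highest ratio in member-rich cells. Alternatives concerned the UMI and C1q limits, the mitochondrial limit, doublets, gates, free RNA, scaling, the pseudocount, means over cells, the count filter and thinning.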

Additional observations from a re-analysis of the deposited data

Results flagged for a closer look

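Stab1 went one way in C1q-high cells and the other way in 3 other populations, and the difference between populations was not tested. Its log2 ratio of CPM, IR over Control, was -0.67 in C1q-high cells, against 1.01 in T-gate cells, 0.72 in monocyte-gate cells with few C1q UMIs and 1.25 in cells that passed several gates. The summed counts behind these values were 45 and 108 UMIs in T-gate cells, 101 and 401 in monocyte-gate cells and 18 and 117 in cells of several gates, Control and IR. T-gate cells also held Mrc1 UMIs and doublets were not removed, so the cells that the Stab1 UMIs came from were not determined. In cells that passed no gate Stab1 was alike, at 44.9 CPM in Control and 45.4 CPM in IR. With 1 library per group, each value compares 2 libraries.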

How the results depend on the processing

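No paired analysis was possible because each group had a single library, and for the same reason no replicate could be left out. The number of members lower by 2-fold or more ran from 2 to 9 around the value of 6, and moved most with the pseudocount. It was 2 with 50 CPM, where 12 of 12359 genes were lower by that much. With 1 CPM it was 9, where 311 of 12359 genes were, against 50 of 12359 in the main setting. It was 4 with at least 5000 UMIs (48 of 12302 genes) or with no other lineage gate (57 of 11015 genes). It was 5 with TMM scaling (46 of 12359 genes). This scaling shifted log2 ratios by 0.05 before the constant of 10 CPM is added and by less after it. The median difference was -1.82 with a pseudocount of 1 CPM, -0.48 with 50 CPM, -0.92 with no other lineage gate and -1.34 as a mean over cells. These left the range between the medians of the members' lower and upper counting limits. Each value of the 10 members kept its sign under every alternative run. The share of member-rich cells rose with depth, to 29.5% in Control and 15.6% in IR without thinning and to 17.0% and 5.63% at 5000 UMIs, which left out 374 and 57 cells. The highest of 20 further thinnings gave 10.9% in Control. Leaving out the 10 cells highest in each member was chosen after seeing the data, and gave a count of 6 and a median of -1.19, though it takes a larger part of the positive IR cells by its construction. All other genes kept their main values in that step, so it has no share over all genes of its own. Over the count, the median and the shares of member-rich cells, 36 alternative values kept their size and 10 moved. A count of 4 against 6 was taken as keeping its size.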
